A study of Rattus norvegicus with 12 samples.

Results

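Unnamed transcripts far from annotated genes are assembled rows of the deposited expression tables that carry no gene symbol and lie in the stretches between named genes. Members were selected on their measured level and position: a row counted as one when its gene entry was a dash, its locus spanned at least 200 bp, at least 1 of the 2 group values of its table reached 1 FPKM, and the edge of the nearest row with a symbol on the same chromosome was more than 10 kb away. FPKM (fragments scaled by transcript length and by the mapped fragments of the library) is a level per length. The rule gave 2498 members among 28578 rows of the table of SNL and Control, and 2524 among 28745 rows of the table of both shRNA groups. They were 24.0% and 23.8% of all rows without a symbol.

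Transcripts between annotated genes are known to include long noncoding RNAs, primary transcripts of microRNAs, RNA from pseudogenes and repeats, unannotated exons of distant genes, and protein-coding genes that an older annotation lacks. Many long noncoding RNAs are spliced and polyadenylated like messenger RNAs but encode no long protein, and they are often present at low levels and in few cell types. The dorsal root ganglion (DRG) holds the cell bodies of primary sensory neurons, wrapped by satellite glia, with Schwann cells, fibroblasts, vessels and immune cells around them. After a peripheral nerve is cut or ligated, these neurons shut down many genes of normal sensory function and switch on a regeneration program.

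The L5 DRG of Sprague Dawley rats was profiled 14 days after L5 spinal nerve ligation (SNL) in 4 groups of 3 libraries each, made from polyadenylated RNA. The SNL group was the ligated side and the Control group the contralateral side. The group labelled Neat1 shRNA and the control shRNA group were both nerve-ligated rats, given an AAV vector of serotype 6 that encoded an shRNA into the L5 DRG 7 days before SNL, so these 2 groups share the ligation and the vector. The labels call the rats male, the methods name males and females of 5 to 6 weeks for all experiments, and the methods place the vector's expression in sensory neurons. The deposited tables give 1 FPKM value per group, the authors' value over its 3 libraries, so no value here has a replicate error or a test, "called" means a ratio of at least 1.5-fold, and the depth of the libraries is unknown. Each comparison is therefore a comparison of pooled levels, with Control and control shRNA as the background.

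Neat1, the long noncoding RNA that the vector was designed against, had 374 FPKM in the group labelled Neat1 shRNA and 355 FPKM under control shRNA (log2 ratio 0.07). The deposited level of the targeted transcript thus did not fall under that label, and directions in that comparison rest on the label. The Neat1 row lies 8.96 kb from Frmd8 in the SNL table and is no member. In that table it had 294 FPKM in SNL and 141 FPKM in Control. Of 12 sensory neuron markers found, 10 were at least 1.5-fold lower in SNL (summed FPKM 3455 in SNL and 10410 in Control), 8 of 9 injured neuron genes were higher (2851 in SNL and 296 in Control), and 9 of 9 macrophage markers were higher (223 in SNL and 42.3 in Control). Markers of spinal cord neurons and oligodendrocytes were all under 1 FPKM. In bulk tissue, fewer cells of a type and less RNA per cell cannot be told apart, and the part of cell composition in the changes below was not tested.

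The members were mostly of low level and spread over wide stretches. In the SNL table the higher of the 2 group values had a median of 3.08 FPKM, against 13.3 FPKM for 11796 rows with a symbol that passed the same limits, and 22 members reached 100 FPKM. The median locus was 16.9 kb long and the median distance to a named gene was 53.9 kb, with the farthest at 5672 kb. The shRNA table gave much the same figures (3.02 FPKM, 16.7 kb and 51.4 kb, with 22 members at 100 FPKM). The locus column marks an assembled bundle rather than a single transcript, and 728 of the 2498 members shared their coordinates with another row, up to 26 rows at chr19:39511676-40236459 between Olr1666 and Inpp4b. Rows that share coordinates are not independent of each other. The 2116 distinct loci of the SNL table formed 1784 runs of members within 10 kb of each other, of which 1514 held a single locus.

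The limits of the rule cut through a continuum. Just inside 1 FPKM stood chr6:39675901-39680038 (0.501 FPKM in SNL and 1.002 FPKM in Control), and just outside stood chr11:83682275-83682660 (0.99998 FPKM in SNL and 0.280 FPKM in Control). Just inside 10 kb stood a locus 10023 bp from Abcc2 (4.34 FPKM in SNL and 2.49 FPKM in Control), and just outside stood one 9989 bp from Gdf7 (5.14 FPKM in SNL and 5.83 FPKM in Control). A row that passed 1 FPKM in a single group tends to differ between groups by construction: 374 members reached 1 FPKM only in SNL, 448 only in Control, and 1676 in both.

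Whether these stretches are free of known genes was checked by gene order in a later rat assembly. Of 17273 symbols in the SNL table, 16625 were found in the RefSeq gene table of GRCr8, and 1900 of the 2498 members lay between 2 symbols whose spacing in GRCr8 was within 2-fold of that in rn5. In 1586 of these (83.5%), GRCr8 places at least 1 protein-coding gene between the same 2 symbols that no symbol of the deposited table was matched to. A row with an unmatched spelling, such as PVR for Pvr, leaves its gene in this count, so the share is an upper figure. Among gaps of 100 to 200 kb, such a gene was present in 81.8% of 253 gaps with a member and in 39.5% of 821 gaps without one, and the order was the same in each other length class from 20 kb up. How far a member lies from such a gene was not measured, so whether it is within 10 kb in the later annotation is unknown. Gene names from GRCr8 are given below only as what lies between the same neighbours. Whether a member is part of such a gene was not tested.

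The start regions of 3 such genes are shown because the members between their neighbours are among the changed loci described below. Mdfic2, of the MyoD family inhibitor domain family, lies between Mitf and Foxp1, Prdm12, a regulator needed for the development of nociceptors, between Exosc2 and Fubp3, and Jchain, which joins the subunits of secreted immunoglobulins, between Utp3 and Enam. Each is 300 bases of RefSeq GRCr8, 250 before to 50 after the gene's start, 5′ to 3′ on the gene's strand: Mdfic2 at chr4:132504363-132504662 (minus strand), Prdm12 at chr3:35322712-35323011 (plus strand) and Jchain at chr14:19822726-19823025 (plus strand). Capitals mark matches on either strand to 4 motifs, the TATA box TATAAA, the octamer ATTTGCAT, the AP-1 site TGANTCA and the cyclic AMP element TGACGTCA.
Mdfic2: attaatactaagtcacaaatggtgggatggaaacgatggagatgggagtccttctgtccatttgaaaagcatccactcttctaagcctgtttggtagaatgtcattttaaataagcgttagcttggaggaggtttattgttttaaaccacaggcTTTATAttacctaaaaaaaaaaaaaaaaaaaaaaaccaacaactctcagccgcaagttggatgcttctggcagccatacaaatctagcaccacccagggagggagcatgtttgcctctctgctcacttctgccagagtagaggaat
Prdm12: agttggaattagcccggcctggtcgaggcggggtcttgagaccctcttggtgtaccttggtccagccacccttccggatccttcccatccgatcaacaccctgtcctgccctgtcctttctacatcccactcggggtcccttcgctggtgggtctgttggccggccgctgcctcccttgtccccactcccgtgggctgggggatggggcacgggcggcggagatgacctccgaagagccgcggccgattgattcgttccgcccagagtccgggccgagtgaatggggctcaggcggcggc
Jchain: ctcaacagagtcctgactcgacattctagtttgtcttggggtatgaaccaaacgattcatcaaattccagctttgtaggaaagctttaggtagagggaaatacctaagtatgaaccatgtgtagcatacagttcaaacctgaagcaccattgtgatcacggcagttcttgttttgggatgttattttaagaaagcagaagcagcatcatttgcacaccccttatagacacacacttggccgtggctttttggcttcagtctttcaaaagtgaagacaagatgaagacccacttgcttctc
The Mdfic2 window held a TATA box match on the other strand, starting at base 155, which 14.2% of 33469 promoters hold on either strand. The Prdm12 window was GC-rich, at 66.3% G and C with 23 CpG pairs, against medians of 51.7% and 7 over all promoters. Mdfic2 and Jchain stood below those medians, with 40.7% and 3 CpG pairs and with 42.3% and 4. The other motifs, held by 1.78% (octamer), 7.33% (AP-1) and 1.83% (cyclic AMP element) of all promoters, had no match in these 3 windows.

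Some members lie in stretches that hold microRNA genes, whose mature RNAs pair with targets through bases 2 to 8, the seed. Mature sequences from such stretches, described below, are given 5′ to 3′ from RefSeq GRCr8, with the seed in capitals. In the SNL table the members around Mir137 lie 43.8 to 389 kb from its row.
rno-miR-137-3p: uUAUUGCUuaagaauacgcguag
rno-miR-370-3p: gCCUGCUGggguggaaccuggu
rno-miR-379-5p: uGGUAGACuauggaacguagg
These 3 have different seeds, so they do not form a seed family.

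The first comparison asked how nerve injury changed these transcripts. Of the 2498 members, 608 (24.3%) were at least 1.5-fold higher in SNL and 742 (29.7%) at least 1.5-fold lower. Over all 16348 rows that passed the same length and FPKM limits, 20.7% were higher and 19.2% lower. Rows with a symbol gave 19.4% higher and 16.4% lower, and the 2053 unnamed rows within 10 kb of a gene gave 24.1% higher and 22.4% lower. The share of members that were higher was thus near that of unnamed rows beside genes, while the share that were lower was above that of each other class. The median log2 ratio was -0.05 over members and 0.01 over rows with a symbol. At least 10-fold differences were found in both directions, with 89 members (3.56%) higher and 131 (5.24%) lower. Over all rows these shares were 1.64% and 2.15%, over rows with a symbol 1.13% and 1.43%, and over unnamed rows within 10 kb 2.24% and 2.48%.

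**Figure D1:**
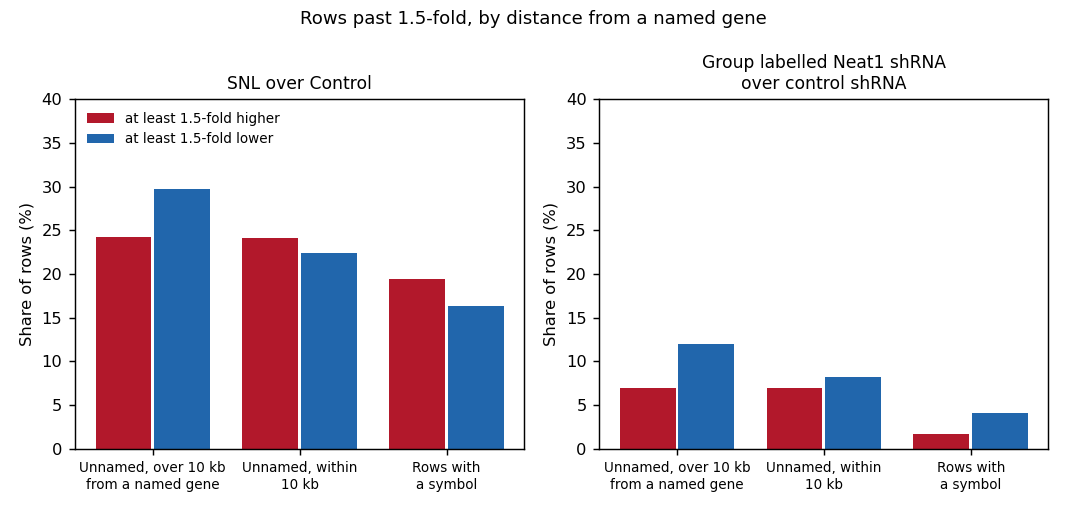
Share of rows (%, y axis from 0) at least 1.5-fold higher (red) or lower (blue) in the first named group, for unnamed rows over 10 kb from a named gene, unnamed rows within 10 kb, and rows with a symbol, in SNL over Control (left) and in the group labelled Neat1 shRNA over control shRNA (right). In the unnamed rows over 10 kb away, 29.7% were lower in SNL and 12.0% lower in the group labelled Neat1 shRNA, against 16.4% and 4.07% of rows with a symbol.

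The excess of lower members was also seen at high levels, and the part of level in it was not tested. Among members of at least 20 FPKM, 29.2% were lower in SNL and 43 of 226 higher, whereas among rows with a symbol at that level 18.1% were lower and 14.8% higher. Where both groups reached 1 FPKM, 335 of 1676 members were lower and 275 higher, against 1544 and 1731 of 10777 rows with a symbol. The share that were lower also went with distance: it was 25.7% in members 10 to 20 kb from a named gene and 36.9% in those beyond 200 kb. The ratio of a member was weakly related to that of its nearest named gene (Pearson r = 0.23 over 396 members at 10 to 20 kb and -0.00 over 296 members beyond 200 kb), and to a greater degree for unnamed rows within 10 kb (0.37 over 1765 rows). These points share libraries and groups of points share a neighbour.

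Locus length divided the members. Of 442 members under 1 kb, 31.2% were higher and 27.8% lower in SNL. Of 503 members of at least 100 kb, 15.3% were higher and 181 lower, and of 147 of at least 300 kb, 7.48% were higher and 43.5% lower. Rows with a symbol went the same way at the long end, with 24.9% lower at 100 kb or more and 33.0% lower at 300 kb or more.

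**Figure D2:**
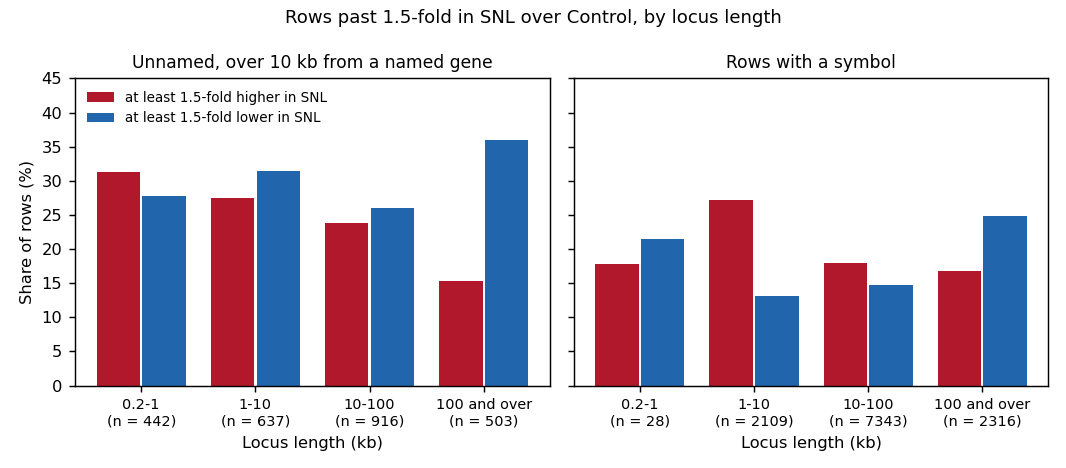
Share of rows (%, y axis from 0) at least 1.5-fold higher (red) or lower (blue) in SNL over Control by locus length in kb, for unnamed rows over 10 kb from a named gene (left) and rows with a symbol (right), with the number of rows under each pair of bars. Of the 503 unnamed rows with a locus of 100 kb and over, some of which share a locus, 181 were lower and 77 higher.

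Of the longest members, chr5:96907365-98540357 between Tmem261 and Tyrp1 (Ptprd in GRCr8, a receptor phosphatase of synapse formation), had 2.66 FPKM in SNL and 4.80 FPKM in Control. Another, chr12:29128953-30214862, 128 kb from Wbscr17 (Auts2 in GRCr8), had 4.59 FPKM in SNL and 6.14 FPKM in Control, a difference under 1.5-fold. Over the 17 distinct loci of at least 500 kb, taking the most abundant row at each, 8 were lower and 1 was higher. Among the other long loci, those with the following values were chosen after their values were seen: 2.65 FPKM in SNL and 16.7 FPKM in Control between Myo9a and Lrrc49 (Thsd4 and Nr2e3 in GRCr8), and 0.0341 FPKM in SNL and 1.17 FPKM in Control between Cdh10 and Basp1, where GRCr8 places the cadherins Cdh12 and Cdh18.

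The lowest ratios in SNL belonged to loci with 6.31 to 62.0 FPKM in Control and 0.0172 to 1.10 FPKM in SNL. Between Mitf and Foxp1, where Mdfic2 is the one protein-coding gene of GRCr8, chr4:195142481-195143673 had 1.10 FPKM in SNL and 62.0 FPKM in Control, and the 92 kb locus beside it, chr4:195154316-195246567, had 0.735 FPKM in SNL and 44.4 FPKM in Control. The flanking genes were low and did not fall with them. Mitf had 1.60 FPKM in SNL and 1.42 FPKM in Control, a difference under 1.5-fold, and Foxp1, which was higher, stood at 3.96 FPKM in SNL and 2.17 FPKM in Control. A second pair of neighbours lay between Ccdc60 and Prkab1, where GRCr8 places Tmem233, a membrane protein of the dispanin family. Its members had 0.548 FPKM in SNL and 60.7 FPKM in Control (chr12:48060278-48061461), and 0.333 FPKM in SNL and 28.0 FPKM in Control (chr12:48093172-48101024). All 4 loci were 56.4-fold to 110.7-fold lower in SNL.

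Leaving out members listed at 0, the lowest ratio among those reaching 5 FPKM was that of chr18:49596304-49609130, between Zfp608 and Gramd3 and 456 kb from Zfp608, at 0.0172 FPKM in SNL and 9.40 FPKM in Control (log2 ratio -9.09). Next to Rbms1, chr3:51887058-51890812 had 0.0422 FPKM in SNL and 9.84 FPKM in Control. Between the epidermal genes Pglyrp3 and Prr9, where GRCr8 places Loricrin, a protein of the cornified skin layer, at a different spacing, chr2:212719032-212720556 had 0.146 FPKM in SNL and 33.5 FPKM in Control. The remaining named loci of this end lay between Zfp521 and Ss18 (0.0552 FPKM in SNL and 7.18 FPKM in Control), between Nkx6-2 and Utf1 (0.101 FPKM in SNL and 6.31 FPKM in Control), and between Isoc2b and Nat14 (0.166 FPKM in SNL and 8.59 FPKM in Control). Of these 10 loci, 4 overlapped a member of the shRNA table, where both groups are ligated and had 1.07 to 4.08 FPKM. Another 4 overlapped no row of that table at all. Over all 2498 members, 2000 overlapped a member of that table and 221 overlapped no row.

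**Figure D3:**
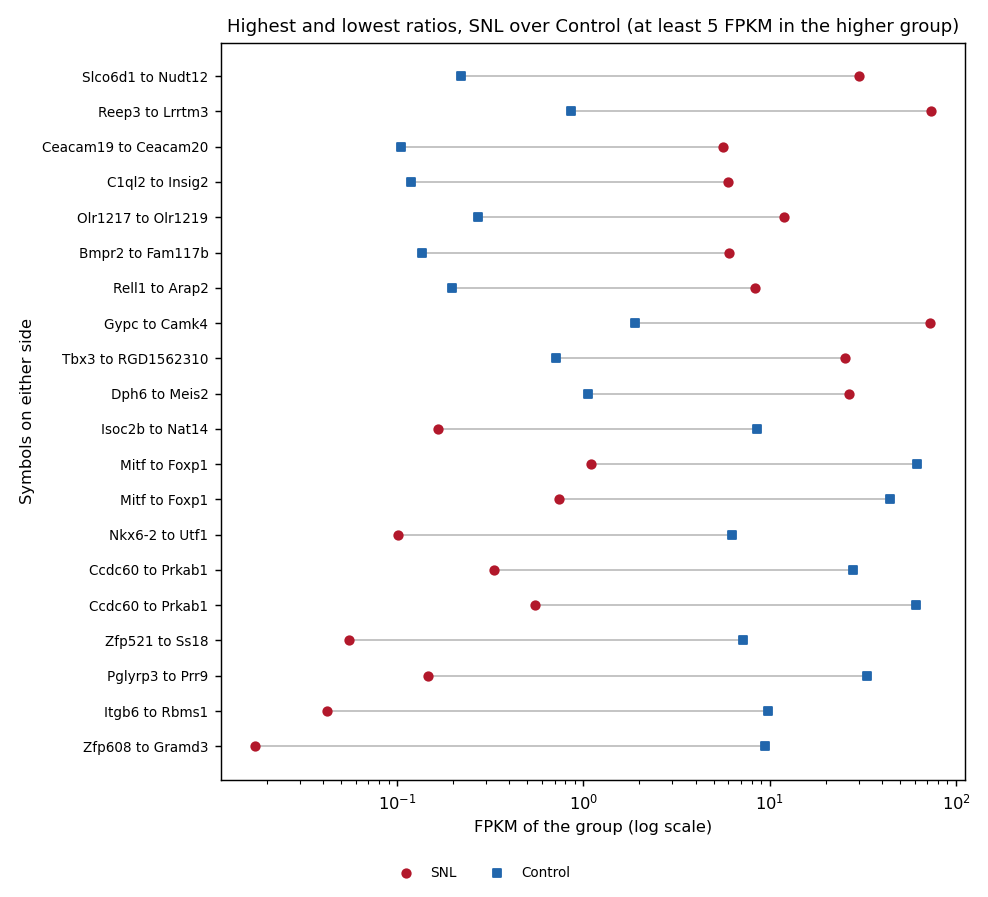
FPKM of SNL (red circles) and Control (blue squares), on a log axis, for the 10 members with the highest and the 10 with the lowest ratio among those reaching 5 FPKM in either group and not listed at 0, named by the symbols on either side. The 10 lowest had 0.0172 to 1.10 FPKM in SNL and the 10 highest had 0.105 to 1.89 FPKM in Control.

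The highest ratios belonged to loci with 0.105 to 1.89 FPKM in Control and 5.59 to 73.3 FPKM in SNL. At chr9:105120729-105120942, 160 kb from Nudt12, SNL had 30.1 FPKM and Control 0.220 FPKM (log2 ratio 7.10). Between Reep3 and Lrrtm3, chr20:25134272-25176427, 45 kb from Reep3, had 73.3 FPKM in SNL and 0.860 FPKM in Control. GRCr8 places 32 genes in that interval, of which Ctnna3, an alpha-catenin, is the one protein-coding gene. Between Gypc and Camk4, chr18:25328701-25333231 had 72.7 FPKM in SNL and 1.89 FPKM in Control, and GRCr8 places the cytokine gene Tslp and Wdr36 in that interval. These 3 were at least 38.5-fold higher in SNL. A separate 774 kb member between Reep3 and Lrrtm3, chr20:27123143-27896709, had 2.61 FPKM in SNL and 2.16 FPKM in Control, a difference under 1.5-fold.

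Large loci were also among them. The 155 kb locus chr12:45257717-45412637, between Tbx3 and RGD1562310 (Med13l in GRCr8, a Mediator subunit), had 25.4 FPKM in SNL and 0.715 FPKM in Control. The 205 kb locus chr3:113709638-113914917, between Dph6 and Meis2 (Cdin1 in GRCr8), had 26.7 FPKM in SNL and 1.06 FPKM in Control. The first of these loci is overlapped by 1 other row and the second by 2, so each value is that of a single row. Between Ceacam19 and Ceacam20, where GRCr8 places the adhesion receptor Pvr, chr1:82113210-82130020 had 5.59 FPKM in SNL and 0.105 FPKM in Control, and a row named PVR lies 12 kb away. Between C1ql2 and Insig2, where GRCr8 places En1 and Marco, a scavenger receptor of macrophages, chr13:41634069-41638899 had 5.98 FPKM in SNL and 0.118 FPKM in Control. The other named loci lay between Olr1217 and Olr1219 (12.0 FPKM in SNL and 0.271 FPKM in Control), between Bmpr2 and Fam117b (6.02 FPKM in SNL and 0.137 FPKM in Control), and between Rell1 and Arap2 (8.33 FPKM in SNL and 0.196 FPKM in Control). All 10 overlapped a member of the shRNA table, as did 80.1% of all members. The overlapping members had 2.30 to 40.6 FPKM in the control shRNA group, which is also nerve-ligated.

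Members between the same 2 symbols moved one way together in some intervals. Among 134 intervals with 2 or more distinct loci of at least 5 FPKM, every such row was lower past 1.5-fold in 22 intervals and higher in 9, so most intervals did not move one way, and no share to compare this with was computed. Between Prkacb and Adgrl4, where GRCr8 places Ttll7, an enzyme that adds glutamate chains to tubulin, 2 members had 22.4 to 34.0 FPKM in SNL and 112 to 172 FPKM in Control. Between Pik3r4 and Col6a4 (collagen genes Col6a5 and Col6a6 in GRCr8), 2 members had 0.422 to 0.961 FPKM in SNL and 14.0 to 14.7 FPKM in Control. On the higher side, 2 members between C6 and Card6, where GRCr8 places C7, a terminal complement component, had 11.2 to 17.1 FPKM in SNL and 4.04 to 7.70 FPKM in Control, and 2 between C1galt1 and Mios (Col28a1 in GRCr8, a collagen) had 47.7 to 56.8 FPKM in SNL and 27.9 to 33.0 FPKM in Control. Between the trypsinogen genes Prss3 and Prss2, 3 members had 51.4 to 72.8 FPKM in SNL and 12.2 to 18.6 FPKM in Control. These intervals were chosen after their values were seen.

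In 85 members the interval held exactly 1 GRCr8 gene, a protein-coding gene (66 genes in all) that no symbol of the table was matched to. Of these members, 22 (25.9%) were higher in SNL and 26 (30.6%) lower, shares near those of all members. The member between Exosc2 and Fubp3, the interval of Prdm12, had 8.57 FPKM in SNL and 50.8 FPKM in Control, and a second row there had 0.554 FPKM in SNL and 2.83 FPKM in Control. Between Nudt7 and Clec3a, the interval of Vat1l, 3 members were all lower, the most abundant at 54.2 FPKM in SNL and 142 FPKM in Control. Between Rpe and Map2, the interval of Unc80, a subunit of the sodium leak channel complex, the member had 2.40 FPKM in SNL and 7.13 FPKM in Control. All members of the Prdm12 and Vat1l intervals were lower in SNL, as were 10 of 12 sensory neuron markers, and the part of cell composition in this was not tested. In the other direction, the interval of Cabp2, a calcium-binding protein, had 7.01 FPKM in SNL and 0.573 FPKM in Control, and that of Il18rap, the accessory chain of the interleukin 18 receptor, had 1.64 FPKM in SNL and 0.123 FPKM in Control. The interval of Ackr1, an atypical chemokine receptor of vessels and red cells, had 24.9 FPKM in SNL and 49.8 FPKM in Control. Examples were picked after their values were seen.

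Of the most abundant members, the first, chr5:141852920-141853283, a locus of 364 bp between Lao1 and Slc2a1, had 1251 FPKM in SNL and 1364 FPKM in Control. The second, chr8:43478237-43480456 between Olr1315 and Bsx, had 653 FPKM in SNL and 958 FPKM in Control (log2 ratio -0.55), and GRCr8 places Hspa8, a constitutive chaperone, among the olfactory receptor genes of that interval, though its spacing there differs. The third, chr13:19554814-19555098, a locus of 285 bp, lay 4816 kb from a named row and had 285 FPKM in SNL and 313 FPKM in Control. None of these 3 differed by 1.5-fold. Of the 8 most abundant, 3 did: the 271 kb locus chr1:243979673-244251039 between Gcnt1 and Foxb2 (Prune2 in GRCr8), at 147 FPKM in SNL and 333 FPKM in Control, and 2 neighbours between Nfatc2 and Zfp93 (Atp9a and Sall4 in GRCr8), at 125 and 111 FPKM in SNL and 190 and 175 FPKM in Control. Those that did not were at 176 FPKM in SNL and 156 FPKM in Control (between Kcnk1 and Tomm20), and at 172 FPKM in SNL and 134 FPKM in Control (255 bp, between Sox17 and Rp1).

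At 37 members 1 group was listed at 0, 24 in SNL and 13 in Control, and the other group had a median of 1.73 FPKM. The highest were chr1:135994160-136165958 between Chd2 and St8sia2 and chrX:34029587-34033132, 17 kb from Rbbp7. The first was listed at 0 in SNL and at 23.0 FPKM in Control. The second was at 17.0 FPKM in SNL and listed at 0 in Control. The first shares its bundle with another row. Further loci that share their bundle with other rows, chrX:74601006-74763288 and chr16:19396521-19455417, were listed at 0 in SNL and at 11.0 and 10.5 FPKM in Control. No fold is given for these.

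Some runs of neighbouring members moved one way. Between Uchl3 and Pck1, 4 loci within chr3:177230833-177252601 summed to 0.0320 FPKM in SNL and 5.92 FPKM in Control, all 4 lower (the last pair of loci was listed at 0 in SNL), and no row of the shRNA table overlapped them. The longest run, 5 loci within chr10:106632474-106721500, lay between Socs3 and Cyth1 (Dnah17 and Pgs1 in GRCr8). It had 4 lower members and 1 abundant member of little change (16.2 FPKM in SNL and 19.5 FPKM in Control). Around Mir137, 3 members 376 to 389 kb away on the Snx7 side had 0.0423, 0.307 and 0.249 FPKM in SNL and 3.30, 9.79 and 4.41 FPKM in Control, while the one on the Dpyd side had 5.02 FPKM in SNL and 10.8 FPKM in Control. The row named Mir137 had 1.14 FPKM in SNL and 1.76 FPKM in Control. All 4 unnamed neighbours were lower past 1.5-fold, and no value of mature microRNA was measured in polyadenylated RNA. Between the rows of Mir1188 and Mir379, where GRCr8 places Mir370, 6 rows that share the bundle chr6:142936809-142963566 summed to 114 FPKM in SNL and 84.6 FPKM in Control, with 3 higher past 1.5-fold. One candidate long noncoding RNA named Linc00643 had a member at its given location. The member chr6:106646041-106657723 had 0.438 FPKM in SNL and 3.38 FPKM in Control (log2 ratio -2.95), 317 kb from Snapc1. The other candidate locations held no member.

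The second comparison asked what the Neat1 shRNA vector did to these transcripts in ligated rats. Of the 2524 members, 177 (7.01%) were at least 1.5-fold higher with the label Neat1 shRNA and 303 (12.0%) lower. Over all 16465 rows under the same limits, 3.18% were higher and 5.82% lower, and over rows with a symbol 1.69% were higher and 4.07% lower. Unnamed rows within 10 kb gave 6.91% higher and 8.21% lower. At 10-fold, 15 members (0.594%) were higher and 38 (1.51%) lower. Those shares were 0.14% and 0.316% over all rows, 0.0593% and 0.0763% over rows with a symbol, and 0.0467% and 0.233% over unnamed rows within 10 kb. The median log2 ratio was -0.00 over members and over rows with a symbol. The share that were lower was 16.9% among members of 1 to 2 FPKM and 5.58% among those of 5 to 20 FPKM, and at 20 FPKM and above 8.46% of 201 members were lower, against 1.37% of 4311 rows with a symbol. Under the same limits 184 members reached 1 FPKM only in the group labelled Neat1 shRNA, 244 only in the control shRNA group, and 2096 in both.

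Several of the largest decreases lay in stretches where GRCr8 places antigen receptor genes, the V segments and constant regions from which B and T cells build immunoglobulins and T cell receptors. Between Crip1 and Adam6 (constant regions and a heavy chain V segment in GRCr8), the 196 kb locus chr6:147047222-147243414 had 64.9 FPKM in the group labelled Neat1 shRNA and 308 FPKM under control shRNA. A locus outside such stretches, chr14:21086946-21093947, lay between Utp3 and Enam, where GRCr8 places Mgst3l1 and Jchain. It had 4.66 FPKM in the group labelled Neat1 shRNA and 37.5 FPKM under control shRNA. Both members were among the 10 lowest ratios, and the intervals with antigen receptor genes were grouped after their values were seen.

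Over the 5 intervals of comparable spacing that hold V segments or constant regions in GRCr8, 27 members summed to 123 FPKM in the group labelled Neat1 shRNA and 501 FPKM under control shRNA, with 19 lower and 5 higher. Over all members of the table, 12.0% were lower and 7.01% higher. Single loci in these intervals went both ways. Each member between Adam6 and Zfp386 reached 1 FPKM in only 1 group, so a difference between groups was favoured by construction. Between Adam6 and Zfp386, 11 of 15 members were lower and 3 higher: chr6:150445326-150446110 was listed at 0 in the group labelled Neat1 shRNA and at 54.2 FPKM under control shRNA, chr6:152532565-152533114 had 0.122 FPKM in the group labelled Neat1 shRNA and 38.9 FPKM under control shRNA, and chr6:149414623-149415079 had 5.59 FPKM in the group labelled Neat1 shRNA and 0.0658 FPKM under control shRNA, the highest ratio among members reaching 5 FPKM in either group and not listed at 0. Between Olr1570 and Hira (the lambda constant gene Iglc1 in GRCr8), chr11:88565800-88677363 had 13.1 FPKM in the group labelled Neat1 shRNA and 1.67 FPKM under control shRNA. The intervals of the T cell receptor beta chain (Prss1 to Ephb6) and alpha chain (Olr1645 to Dad1), known by these neighbours in mammals, were lower at their main loci, with 7.82 FPKM in the group labelled Neat1 shRNA and 32.1 FPKM under control shRNA between Prss1 and Ephb6, and 5.78 FPKM in the group labelled Neat1 shRNA and 23.4 FPKM under control shRNA between Olr1645 and Dad1.

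Lymphocyte markers moved with these loci. Of 8 T cell markers, 7 were lower, with a summed level of 55.5 FPKM in the group labelled Neat1 shRNA and 122 FPKM under control shRNA, and Cd3e, a chain of the T cell receptor complex, had 3.40 FPKM in the group labelled Neat1 shRNA and 13.4 FPKM under control shRNA. Of 4 B and plasma cell markers found, 3 reached 1 FPKM and all 3 were lower, with sums of 1.32 FPKM in the group labelled Neat1 shRNA and 8.66 FPKM under control shRNA. No marker of either list was listed at 0 in these 2 groups. The part of lymphocyte number in these values was not tested. After SNL, 5 members of that table lay in such intervals of comparable spacing, summing to 13.6 FPKM in SNL and 5.86 FPKM in Control, and no B or plasma cell marker reached 1 FPKM there.

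A further cluster lay between the olfactory receptor genes Olr410 and Olr411 on chromosome 3, where 21 members, each under 1 kb, were found. GRCr8 places no gene between these 2 symbols, but the spacing differs, so the order could not be used. The members summed to 30.3 FPKM in the group labelled Neat1 shRNA and 310 FPKM under control shRNA, with 13 lower and 8 higher. Examples were 0.534 FPKM in the group labelled Neat1 shRNA and 164 FPKM under control shRNA (chr3:22295198-22295524), 1.81 FPKM in the group labelled Neat1 shRNA and 76.0 FPKM under control shRNA (chr3:22143294-22143900), and 9.08 FPKM in the group labelled Neat1 shRNA and 0.150 FPKM under control shRNA (chr3:23559698-23560251). Loci of this cluster differed in both directions. Most of them reached 1 FPKM in only 1 group, so a difference between groups was favoured by construction. Over all members of the table, 12.0% were lower and 7.01% higher.

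**Figure D4:**
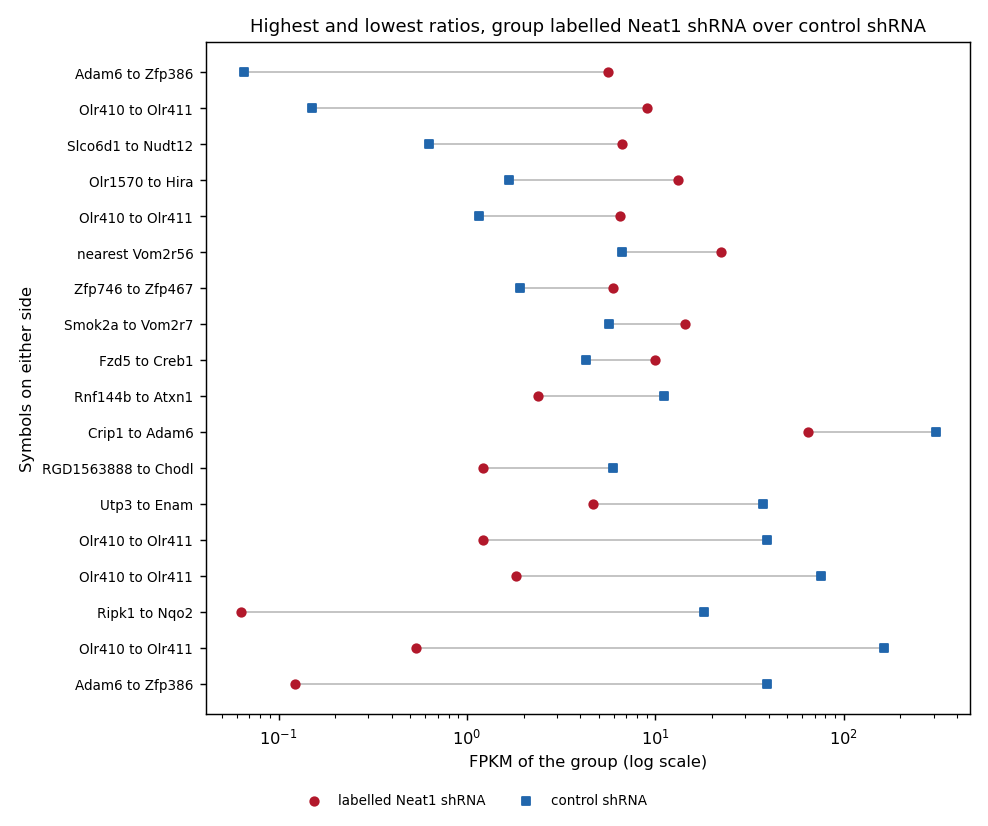
FPKM of the group labelled Neat1 shRNA (red circles) and of the control shRNA group (blue squares), on a log axis, for 9 of the 10 members with the highest and 9 of the 10 with the lowest ratio among those reaching 5 FPKM in either group and not listed at 0, named by the symbols on either side. Loci between Adam6 and Zfp386 and between Olr410 and Olr411 appear at both ends.

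Other large differences stood outside those stretches. At chr15:28379174-28394362, between Atg14 and Peli2 (Ktn1 in GRCr8, a kinesin-binding protein), the group labelled Neat1 shRNA had 178 FPKM and the control shRNA group was listed at 0, while the overlapping row of the SNL table was named Atg14 and had 5.70 FPKM in SNL and 4.22 FPKM in Control. Between Ripk1 and Nqo2, chr17:33670061-33670833 had 0.0629 FPKM in the group labelled Neat1 shRNA and 18.1 FPKM under control shRNA. Between Slco6d1 and Nudt12, chr9:104808089-105057098 had 6.67 FPKM in the group labelled Neat1 shRNA and 0.632 FPKM under control shRNA. Of the 10 highest and 10 lowest ratios of this table, 7 and 5 overlapped no row of the SNL table. Over all 2524 members, 174 overlapped no row there. The top value of the table, at chr5:29975360-29977136, 46.6 kb from Rad54b, was listed at 5346220 FPKM in the group labelled Neat1 shRNA and at 5962210 FPKM under control shRNA. A second row at the same coordinates had 0.181 FPKM in the group labelled Neat1 shRNA and 0.220 FPKM under control shRNA. The top value is in no sum above and is not read as a level here. The next value, at the locus between Lao1 and Slc2a1 that led the SNL table, was 1368 FPKM in the group labelled Neat1 shRNA and 1266 FPKM under control shRNA, a difference under 1.5-fold.

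The last question was whether transcripts changed by injury differed between the vector groups. Of the 2498 members of the SNL table, 2000 (80.1%) overlapped a member of the shRNA table by at least 1 bp. Those without a partner were of lower level (median 1.53 FPKM, against 3.84 FPKM for those with one), 221 of them overlapped no row at all and 24 overlapped a row with a symbol. In 1282 one-to-one pairs the level in the control shRNA group was within 2-fold of that in SNL, both being ligated, in 90.2%. Over all overlapping members, many of which share a partner, the share was 76.0%, and the counts and correlations that follow use all of them. The tables were assembled and normalized separately, so levels across them carry that limit.

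Of the 519 paired members higher in SNL, 72 (13.9%) fell past 1.5-fold under the Neat1 shRNA label and 15 (2.89%) were higher. Of the 428 lower in SNL, 36 (8.41%) were higher under that label and 16 (3.74%) lower. Among the 1053 that passed 1.5-fold in neither direction in SNL, 2.75% were lower under that label and 2.09% higher. Rows with a symbol gave a like picture, with 11.1% lower and 0.948% higher among 2110 that were higher in SNL, and 4.64% higher and 1.16% lower among 1552 that were lower in SNL. The log2 ratios of the 2 comparisons, which share no libraries, had Pearson r = -0.25 and Spearman rho = -0.21 over 1990 members, and r = -0.38 over 10850 symbols. Most paired members did not pass 1.5-fold between the vector groups, 432 of the 519 and 376 of the 428.

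**Figure D5:**
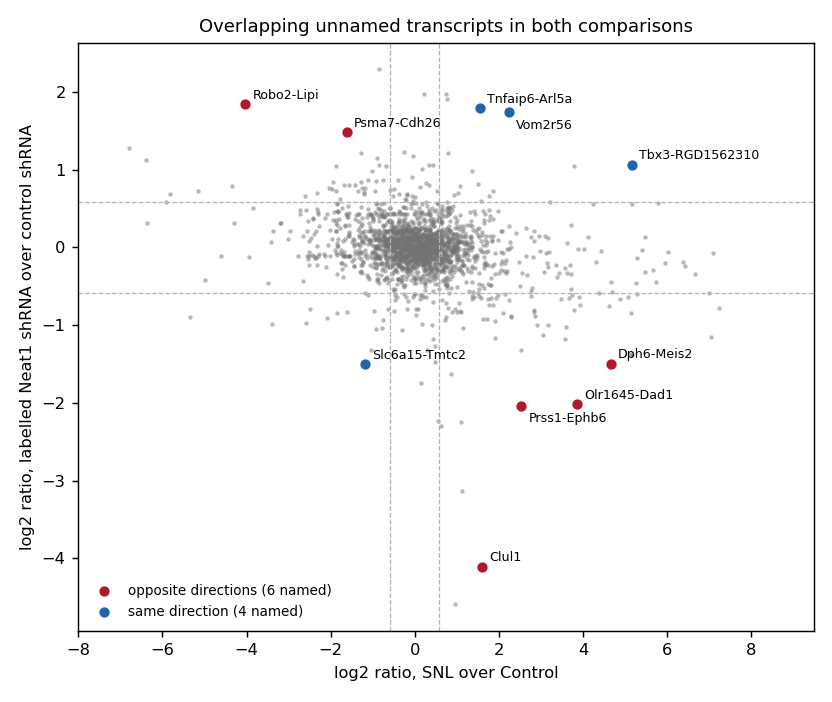
log2 ratio of SNL over Control (x axis) against log2 ratio of the group labelled Neat1 shRNA over control shRNA (y axis) for overlapping members, 1 point per member of the SNL table, with dashed lines at 1.5-fold. Red points are 6 members with the largest changes in opposite directions and blue points 4 in the same direction, named by the symbols around them. The T cell receptor intervals (Prss1 to Ephb6 and Olr1645 to Dad1) lie at the lower right, at 2.53 and 3.86 on the x axis.

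The pairs with the largest opposite changes included both T cell receptor intervals. These had 3.49 FPKM in SNL and 0.603 FPKM in Control (Prss1 to Ephb6), and 3.16 FPKM in SNL and 0.218 FPKM in Control (Olr1645 to Dad1). In the same order, the group labelled Neat1 shRNA had 7.82 and 5.78 FPKM, above SNL, and the control shRNA group had 32.1 and 23.4 FPKM. The 2 comparisons were normalized separately. The locus between Dph6 and Meis2, among the 10 highest in SNL, had 10.8 FPKM in the group labelled Neat1 shRNA and 30.6 FPKM under control shRNA. These are values of a single row, which 3 other rows overlap. In the other direction, chr11:16022030-16280447, 768 kb from Robo2, an axon guidance receptor, had 0.954 FPKM in SNL and 15.7 FPKM in Control. Its partner had 1.40 FPKM in the group labelled Neat1 shRNA and 0.391 FPKM under control shRNA. Robo2 itself had 4.31 FPKM in SNL and 24.7 FPKM in Control, and 3.69 FPKM in the group labelled Neat1 shRNA and 3.64 FPKM under control shRNA. The locus between Psma7 and Cdh26 (Cdh4 in GRCr8, a neuronal cadherin) had 1.30 FPKM in SNL and 3.98 FPKM in Control, and 1.67 FPKM in the group labelled Neat1 shRNA and 0.598 FPKM under control shRNA. A small locus 91 kb from Clul1 had 2.04 FPKM in SNL and 0.675 FPKM in Control, and 0.140 FPKM in the group labelled Neat1 shRNA and 2.42 FPKM under control shRNA.

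Changes in the same direction were fewer. A locus of 1855 bp, chr7:20758344-20760198, 1490 kb from Vom2r56, had 10.4 FPKM in SNL and 2.20 FPKM in Control. Its partner had 22.2 FPKM in the group labelled Neat1 shRNA and 6.67 FPKM under control shRNA. The member of the Med13l interval, which 1 other row overlaps, had 17.6 FPKM in the group labelled Neat1 shRNA and 8.45 FPKM under control shRNA. A locus between Tnfaip6 and Arl5a had 1.18 FPKM in SNL and 0.401 FPKM in Control, and 1.22 FPKM in the group labelled Neat1 shRNA and 0.354 FPKM under control shRNA. A locus between Slc6a15 and Tmtc2 had 1.11 FPKM in SNL and 2.51 FPKM in Control, and 0.515 FPKM in the group labelled Neat1 shRNA and 1.46 FPKM under control shRNA. Of the loci lower in SNL, both Mdfic2 interval members changed the other way, by 1.5-fold or more, but stayed low, at 1.71 and 2.46 FPKM in the group labelled Neat1 shRNA and 1.07 and 1.64 FPKM under control shRNA, and both Tmem233 interval members, also higher under the Neat1 shRNA label, had 4.08 and 3.64 FPKM in the group labelled Neat1 shRNA and 1.69 and 1.66 FPKM under control shRNA.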

How the data were processed

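Members and lists were chosen with earlier results of these data known. RNA of the L5 DRG was sequenced by the authors as stranded polyadenylated libraries (paired reads of 75 bp), aligned to rn5 with RefSeq genes and assembled with Illumina's RNA-Seq Alignment application, and given FPKM by Cufflinks (rn5 and Cufflinks are also in the submitters' processing notes). The depth is unknown, and the tables were normalized separately. The authors deposited 1 table per comparison, with 1 FPKM value per group over its 3 libraries, normalized for transcript length and library size. Columns of the authors' own fold changes, test statistics, p-values and q-values were not used.

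Ratios and log2 ratios were computed from the FPKM of a table with no pseudocount, using Python 3.11.15, NumPy 2.4.6 pandas 2.3.3 and Matplotlib 3.10.9, and the steps were tested on simulated data. Locus length counts both ends. The 1 unnamed row on the mitochondrial chromosome, which has no row with a symbol, was left out. Members were paired across tables by the longest overlap. RefSeq GRCr8 served only for gene order and for the printed sequences. With 1 value per group, no test was possible. Named members were the 8 most abundant, the 10 highest and 10 lowest ratios reaching 5 FPKM in either group, up to 4 listed at 0, the 3 longest, the longest runs, the rows at the limits, and the 6 and 4 pairs with the largest opposite and shared changes. Alternatives varied the limits, the fold, the pseudocount, the centring and the treatment of shared coordinates. Some members that the rule names are not reported here.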

Additional observations from a re-analysis of the deposited data

How the results depend on the processing

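Of 70 alternative settings over 7 results, 52 left the count within 1.5 times of that reported, or the median within 0.1 on the log2 scale. A fold of 2 gave 376 members higher in SNL, and 83 higher and 162 lower under the Neat1 shRNA label. A limit of 0.5 FPKM gave 1123 higher and 1364 lower in SNL, and 483 and 632 under that label. A limit of 2 FPKM gave 340 and 453 in SNL, and 78 and 162 under the Neat1 shRNA label. No limit on FPKM gave 1621 and 1743 in SNL, and 780 and 936 under that label. A pseudocount of 1 gave 84 higher and 168 lower in the group labelled Neat1 shRNA. Other limits change how many members are counted, a higher fold is a stricter call, and a pseudocount shrinks the ratios of low values. Lower members outnumbered higher ones under each setting. Counting only one-to-one overlaps, chosen after seeing the data, left 1282 of 2000 overlapping members. Summing rows with the same coordinates and adding the mitochondrial row, also chosen after seeing the data, moved no count past 1.5 times. No paired analysis was possible because the tables hold 1 value per group, and for the same reason no replicate could be left out. Spread between rats and depth are unknown, and many members are near 1 FPKM.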

Other observations

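Between Fzd5 and Creb1, 2 members had 6.24 to 9.92 FPKM in the group labelled Neat1 shRNA and 2.99 to 4.26 FPKM in the control shRNA group. This interval was 1 of 141 intervals of the shRNA table with 2 or more loci of at least 5 FPKM, and it was chosen after its values were seen.

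The nearest named row was a single microRNA gene for 43 members of the SNL table, of which 8 (18.6%) were higher and 13 (30.2%) lower in SNL, against 24.3% and 29.7% of all members. A single microRNA gene was also the nearest named row for 42 members of the shRNA table. Of these, 2 (4.76%) were higher and 4 (9.52%) lower in the group labelled Neat1 shRNA, against 7.01% and 12.0% of all members. The unnamed row on the mitochondrial chromosome had 0.866 FPKM in SNL and 1.26 FPKM in Control.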
